A study of Homo sapiens with 6 samples.

Results

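Acetylation of histone H3 at lysine 27 (H3K27ac) and binding of CTCF were examined at 10 proliferation and cyclin genes in cultures labelled as neurons: MKI67, TOP2A, CDK1, CCNA2, CCNB1, CCND1, CCND2, PCNA, MCM2 and AURKA. A peak was assigned to a gene when it overlapped the gene's GRCh38 interval extended by 10 kb on each side. By this rule the 10 genes, of 20033 protein-coding genes, took 50 of 78694 H3K27ac peaks and 18 of 43677 CTCF peaks. The cultures came from KOLF2.1J, a reference line of human induced pluripotent stem cells, taken through neural progenitors to neurons with a BrainPhys protocol. The labels give no treatment or genetic change. There were 2 CTCF, 2 H3K27ac and 2 input libraries. All came from that 1 line. The values are from 1 peak list per antibody that covers both of its libraries, so there is no spread between replicates, no second condition and no test between groups in what follows. Read depth is not given by the lists. The cultures were profiled in bulk, so fewer cells that carry a mark and less of the mark per cell cannot be told apart.

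H3K27ac is deposited by histone acetyltransferases at active promoters and enhancers, usually on the nucleosomes that flank an open, factor-bound start site. CTCF is a DNA-binding protein that marks the anchors of many chromatin loops. Cyclins bind and activate cyclin-dependent kinases (CDKs): D cyclins act in G1, cyclin A2 in S and G2, and cyclin B1 in mitosis, with CDK1 as the mitotic kinase. PCNA is the sliding clamp of DNA polymerases and MCM2 a subunit of the replicative helicase. TOP2A untangles sister chromatids, AURKA organises spindle poles, and MKI67 encodes Ki-67, the protein used to stain dividing cells. Many genes of S phase are controlled by E2F factors, and many genes of G2 and mitosis by the DREAM and MuvB complexes through CHR elements and by NF-Y through CCAAT boxes. Neurons are postmitotic, whereas the progenitors from which they arise divide.

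The promoters show what sequence the acetylated nucleosomes surround, and 5 are printed. MKI67 had no peak, and the other 4 had peaks on both sides of the start. The starts of PCNA and MCM2, which also had peaks on both sides, are not printed. Each run is the 250 bases before a gene start in RefSeq's GRCh38.p14 annotation, read 5′ to 3′ in the direction of transcription. Capitals mark the letters searched for on both strands. These were the CHR element, written TTTGAA or, in its other form, TTCGAA, the CCAAT box and the GC box, written GGGCGG. The E2F site was searched in 4 forms, the first being TTCCCGC, the next form being TTGGCGC, then the form with letters TTCGCGC and finally the form with letters TTGCCGC. Neighbouring matches can overlap and then form 1 run of capitals.
MKI67, chr10:128126424-128126673, minus strand: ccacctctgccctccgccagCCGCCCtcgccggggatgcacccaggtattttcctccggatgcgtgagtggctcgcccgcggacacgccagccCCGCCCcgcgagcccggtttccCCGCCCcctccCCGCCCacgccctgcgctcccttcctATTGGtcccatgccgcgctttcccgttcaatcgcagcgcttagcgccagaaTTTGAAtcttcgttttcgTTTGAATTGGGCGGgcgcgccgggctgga
TOP2A, chr17:40417897-40418146, minus strand: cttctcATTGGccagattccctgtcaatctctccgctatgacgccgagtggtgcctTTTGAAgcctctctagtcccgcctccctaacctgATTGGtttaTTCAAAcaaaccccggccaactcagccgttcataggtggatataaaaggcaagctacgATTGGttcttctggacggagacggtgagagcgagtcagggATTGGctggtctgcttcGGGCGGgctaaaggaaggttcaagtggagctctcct
CDK1, chr10:60778081-60778330, plus strand: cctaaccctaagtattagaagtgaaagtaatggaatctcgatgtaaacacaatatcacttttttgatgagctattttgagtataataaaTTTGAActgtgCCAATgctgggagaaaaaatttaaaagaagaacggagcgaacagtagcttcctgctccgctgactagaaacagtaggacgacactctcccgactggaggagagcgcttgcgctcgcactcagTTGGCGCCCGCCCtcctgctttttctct
CCNA2, chr4:121823884-121824133, minus strand: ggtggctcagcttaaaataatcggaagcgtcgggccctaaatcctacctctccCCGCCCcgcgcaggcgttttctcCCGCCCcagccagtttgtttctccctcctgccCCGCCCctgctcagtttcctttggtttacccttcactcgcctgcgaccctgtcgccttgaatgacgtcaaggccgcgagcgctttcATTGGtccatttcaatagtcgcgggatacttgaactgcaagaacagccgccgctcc
CCNB1, chr5:69166900-69167149, plus strand: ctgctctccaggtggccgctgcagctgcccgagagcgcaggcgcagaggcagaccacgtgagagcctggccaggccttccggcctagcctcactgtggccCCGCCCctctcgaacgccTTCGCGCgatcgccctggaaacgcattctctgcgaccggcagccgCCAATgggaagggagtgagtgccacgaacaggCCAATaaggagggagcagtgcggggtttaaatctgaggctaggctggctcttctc
The promoter table held 9 starts for 7 of the 10 genes, with 2 each for CDK1 and PCNA. In the 300-base windows from 250 bases before to 50 after these starts, a CCAAT box was found in 8 of 9, against 34.7% of 22198 windows of protein-coding genes. An E2F site was found in 5 of 9 (16.1% of all windows), a CHR element in 4 of 9 (13.7%) and a GC box in 9 of 9 (56.3%). The 2 CDK1 windows overlap, so their matches are not independent. The TOP2A promoter carried CCAAT boxes beginning 244, 160, 93 and 53 bases before the start, and windows with 3 or more of them made up 3.61% of all windows. A match is a run of letters and not a measured binding site.

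H3K27ac was found at 9 of the 10 genes (90%, 95% Wilson interval 59.6 to 98.2%, for counting error only). The background is high, since 76.9% of all protein-coding genes had at least 1 peak under the same rule. MKI67 was the gene without one. The highest fold enrichment per gene had a median of 11.3 over the 10 genes, against 12.3 over all protein-coding genes. Genes without a peak were entered as 0 in both medians: MKI67 here, and 4633 (23.1%) of all protein-coding genes. A comparison of only the genes with a peak was not made for this value. By this value 5 of the 10 genes lay above the median of all genes (background 50%). The 50 peaks had fold enrichments from 2.07 to 25.2 with a median of 5.62, and 29 of them exceeded the list's median of 4.74.

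Neighbouring genes set several of the highest values. In 4 genes (CCND1, PCNA, MCM2 and AURKA) the strongest H3K27ac peak within the extended interval lay over another protein-coding gene, as did 10 of the 50 peaks. With such peaks left out, the median of the highest fold enrichment was 6.86 over the 10 genes and 7.27 over all protein-coding genes. The count above the all-gene median was then 4 of 10, with a background of 50%. Near the 10 kb limit, the outermost assigned H3K27ac peak was that of AURKA over FAM210B, with a fold enrichment of 6.77, and the nearest unassigned one was 10.5 kb from CCNB1, with 7.43. With the 10 kb extension, the 10 genes were thus near the middle of the genome's protein-coding genes by either reckoning. Shorter extensions placed them lower. The median highest value was 8.18 against 11.03 over all genes with 5 kb, and 6.86 against 8.56 without extension. With 20 kb it was 14.2 against 14.3.

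**Figure D1:**
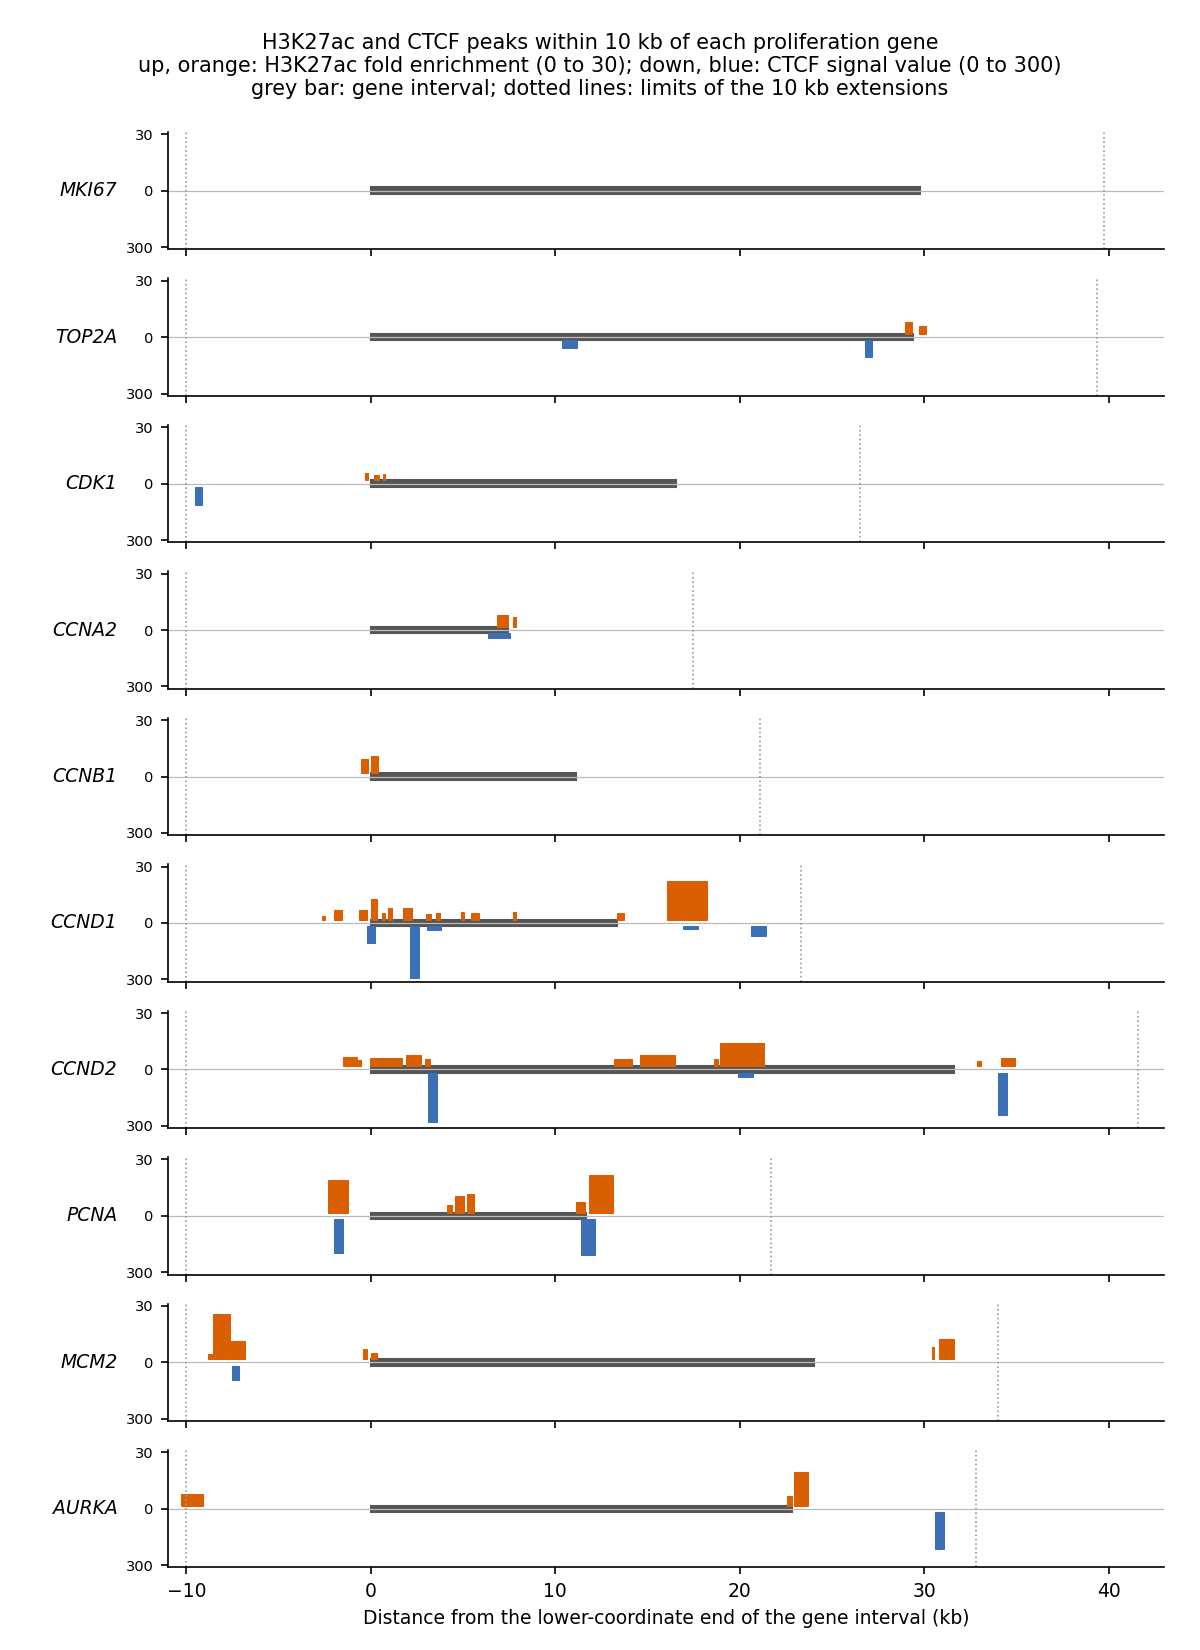
Peaks drawn along each gene: the x axis is the distance in kb from the lower-coordinate end of the gene interval, orange boxes pointing up are H3K27ac peaks (fold enrichment, scale 0 to 30) and blue boxes pointing down are CTCF peaks (signal value, scale 0 to 300). CCND1 and CCND2 carry 14 and 11 H3K27ac peaks, TOP2A, CDK1, CCNA2 and CCNB1 carry 2 or 3 at 1 end, and MKI67 carries none.

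The D cyclins had the most peaks. CCND1, which encodes cyclin D1, held 14 H3K27ac peaks in its extended interval on chromosome 11 (gene interval 69641156 to 69654474), and 99.4% of the 4903 protein-coding genes of similar extended length (within 20%) had fewer. CCND2, which encodes cyclin D2, held 11 on chromosome 12 (4273762 to 4305353), and 96.9% of 3511 genes of similar length had fewer. The median of either comparison set was 2 peaks. Across all protein-coding genes, 8.53% had 10 or more peaks, as these 2 of the 10 genes did. H3K27ac peaks covered 18.2% of the extended CCND1 interval and 19.9% of that of CCND2, compared with 0 to 12.3% in the other 8 genes.

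At CCND1 the peaks ran over 20.9 kb. The strongest was 2200 bp wide, lay beyond the higher-coordinate end of the gene, from 69657186 to 69659385 with its summit 3537 bp past that end, and had a fold enrichment of 22.0. It overlapped LOC124902704, a locus annotated as protein-coding. The next was at the lower-coordinate end of the gene, from which CCND1 is transcribed, from 69641151 to 69641512 with a fold enrichment of 11.9. The other 12 had fold enrichments between 2.07 and 6.79, and their summits were scattered from position 69638502, before that end, to 128 bp past the far end of the gene. The weakest of them, with a −log10 q of 0.451, was the only peak of the 50 with a q-value above 0.05.

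At CCND2 the strongest peak was inside the gene and away from its ends. It was 2368 bp wide, from 4292710 to 4295077, with its summit 19977 bp from the lower-coordinate end, from which CCND2 is transcribed, and a fold enrichment of 13.1. Another wide peak of 1924 bp preceded it, from 4288351 to 4290274, with a fold enrichment of 6.31. At the lower-coordinate end itself a peak of 1749 bp had a fold enrichment of only 4.88. That end also overlaps CCND2-AS1, an antisense RNA gene, so the acetylation there cannot be assigned to either gene. Beyond the 10 kb extension, the nearest peak began 15.0 kb from the gene with a fold enrichment of 15.9. With the extension set to 20 kb, the highest value assigned to CCND2 was 25.7.

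**Figure D2:**
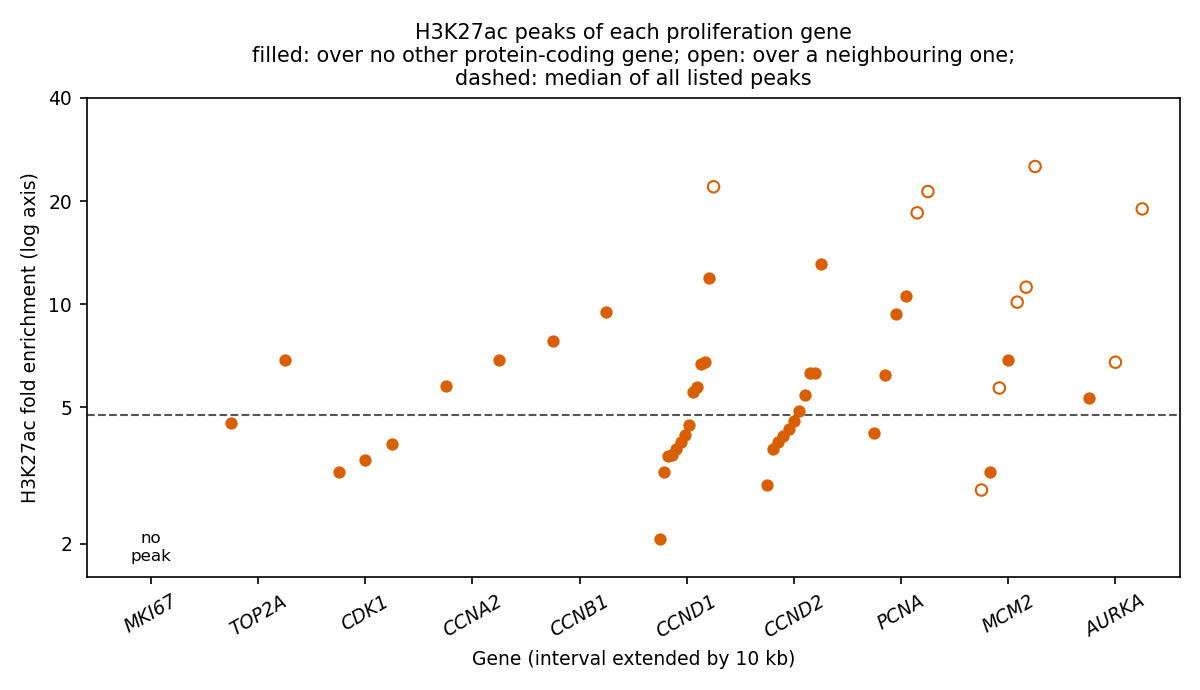
Each point is 1 H3K27ac peak of the gene named on the x axis, and the log y axis gives its fold enrichment; open points overlap a neighbouring protein-coding gene and the dashed line is the list's median of 4.74. Every peak above 15 is an open point, and CDK1 has all 3 of its peaks below the dashed line.

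Of the replication genes, PCNA (chromosome 20, 5114953 to 5126622) had 6 H3K27ac peaks and acetylation at both of its annotated starts. The start at 5119958 lay inside a peak of fold enrichment 9.39, which also overlaps the antisense RNA gene PCNA-AS1, and a peak of 10.5 followed on its upstream side. The other start, at 5126622, faces CDS2, a lipid synthesis gene. There, a peak of fold enrichment 21.3 over CDS2 lay upstream and a peak of 6.23 inside PCNA lay downstream. A further peak of 18.5 belonged to the interval of TMEM230 at the far end. The strongest peaks within 10 kb of PCNA were therefore over CDS2 and TMEM230, and those over PCNA alone reached 10.5.

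MCM2 (chromosome 3, 127598411 to 127622436) showed the widest contrast of the 10 genes between its own interval and its surroundings. Its extended interval held 7 H3K27ac peaks. Only 1 of them was inside the gene, with a fold enrichment of 3.25. The strongest, 25.2, lay 7794 bp upstream of the MCM2 start over TPRA1, with a peak of 10.1 beside it, and a peak of 11.2 lay over PODXL2 beyond the far end. The peak just before the MCM2 start had a fold enrichment of 5.70 and also overlapped TPRA1. The other 2 peaks had fold enrichments of 2.87, over TPRA1, and 6.86, beyond the far end.

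The genes that act in S phase to mitosis, CCNA2, CCNB1, TOP2A and CDK1, carried 2 or 3 peaks, all at the end from which the gene is transcribed. These counts were ordinary. Genes with extended intervals of like length had a median of 2, and fewer peaks were held by 46.2% of them for CCNA2, 42.7% for CCNB1, 34.9% for TOP2A and 58.2% for CDK1. CCNA2 (chromosome 4, 121816444 to 121823883) had peaks of fold enrichment 6.86 and 5.77, and CCNB1 (chromosome 5, 69167150 to 69178245) had peaks of 9.49 and 7.82. TOP2A (chromosome 17, 40388525 to 40417896) had peaks of 6.86 and 4.50. The value of 6.86 recurs because the list holds 10516 distinct fold enrichments for its 78694 peaks, and 129 peaks share it. CDK1 (chromosome 10, 60778331 to 60794852) had 3 peaks with fold enrichments of 3.92, 3.51 and 3.25 and widths of 171, 120 and 247 bp. Its highest value was the lowest among the 9 genes with a peak, and 26.2% of all protein-coding genes, those without a peak included, had a lower one.

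AURKA (chromosome 20, 56369390 to 56392215) had a peak of fold enrichment 5.33 just inside its higher-coordinate end, from which it is transcribed. A peak of 19.0 stood 109 bp away over CSTF1, a gene for an mRNA processing factor that begins beside it. The remaining peak, of 6.77, overlapped FAM210B near the limit of the opposite extension. As at PCNA and MCM2, the larger value was over the neighbour.

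MKI67 (chromosome 10, 128096659 to 128126423) had no H3K27ac and no CTCF peak within 10 kb. Its nearest H3K27ac peak on the upstream side began 41.2 kb from the gene with a fold enrichment of 13.3, and the nearest on the other side ended 96.6 kb away with a fold enrichment of 2.56. Of all protein-coding genes, 4633 (23.1%) likewise had no H3K27ac peak. The printed MKI67 promoter is rich in the searched letters: CHR letters TTTGAA begin 47 and 29 bases before the start, and CCAAT boxes 98 and 24 bases before it. Its 300-base window held 36 CpG dinucleotides, against a median of 21 over all windows. Of the 3628 windows with at least 36 CpG dinucleotides, 80.2% overlapped an H3K27ac peak and 19.8%, that of MKI67 among them, did not. How much signal lies below the list's threshold at MKI67 is not shown by a peak list.

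The peaks at starts shared a shape, though the genes were chosen with earlier results of these data known. At each of the 8 starts of the 6 genes with H3K27ac, at least 1 summit lay upstream and at least 1 downstream within 1 kb, with a gap between the nearest upstream and downstream peaks. Both CDK1 starts and the inner PCNA start had 3 peaks within 1 kb. The CCNB1, MCM2 and inner PCNA starts lay inside the downstream peak, near its edge, and the other 5 lay in the gap. Summits on both sides were found for 6 of 7 genes with an annotated start, against 32.6% of 15842 protein-coding genes with a start in the table. Among genes with any H3K27ac peak within 1 kb of a start the background was 49.5%. In the lists described below, the shape was found for 39 of 61 cell cycle genes, 4 of 9 neuron markers and 0 of 8 neural progenitor markers. The shape requires separate listed peaks, so a start with only a single peak, however wide or strong, counts as lacking it. All 8 progenitor markers had a peak within 1 kb of a start, with a median highest value of 31.7 there. Whether wide single peaks account for the low marker counts was not tested. The gap was 156 bp at the inner PCNA start, 167 bp at CCNB1, 173 bp at MCM2, 226 bp at the outer PCNA start, 245 bp at CCNA2, 330 bp at CDK1 and 394 bp at TOP2A. The summits were 436 to 747 bp apart, and the median over 5905 such starts of all protein-coding genes was 565 bp with quartiles of 454 and 748 bp. The spacing at the proliferation genes thus fell almost wholly between those quartiles, with CCNA2 just under the lower one.

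Much of the printed sequence lies in those gaps. None of the 250 upstream bases of TOP2A was inside an H3K27ac peak, nor were those of MKI67, which has no peak. For CCNA2 11 bases were, for CCNB1 83 and for the first CDK1 start 115. The median over the 5905 starts of protein-coding genes with summits on both sides was 122 of 250 bases. The CCAAT boxes of CCNB1, 87 and 55 bases before its start, and that of CCNA2, 56 bases before its start, fell outside the peaks, as did the 4 of TOP2A. At the first CDK1 start, the CCAAT box 150 bases and the CHR element 161 bases before it lay inside the H3K27ac peak of fold enrichment 3.92.

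**Figure D3:**
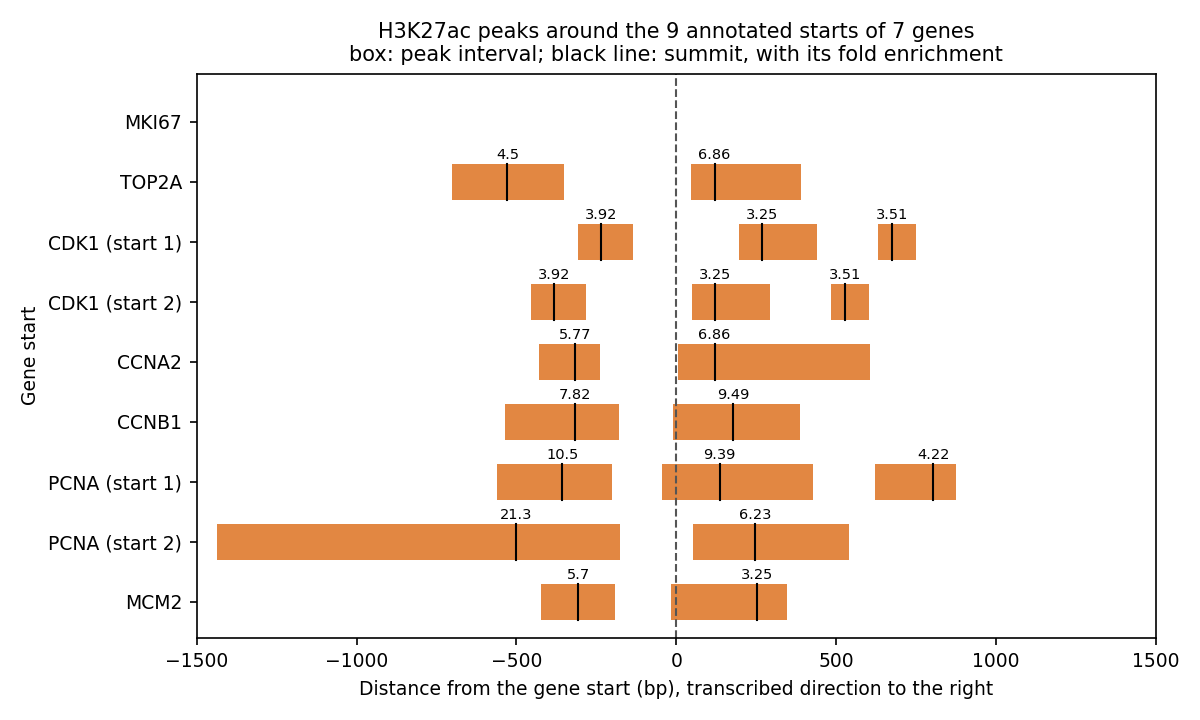
H3K27ac peak intervals (boxes) and summits (black lines, labelled with the fold enrichment) around the 9 annotated starts of 7 genes; the x axis is the distance from the start in bp with the transcribed direction to the right. Apart from MKI67, each start has a peak on its left and one on its right; 5 starts sit in the gap between them, and the CCNB1, MCM2 and first PCNA starts lie just inside the right-hand peak.

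The gene ends of CCND1, CCND2 and AURKA from which they are transcribed showed the same arrangement, with gaps of 197, 460 and 109 bp and summits 536, 1010 and 464 bp apart. The promoter table has no start for these genes, so the ends of their intervals were used, and they are not in the counts above. In amount, the starts were modest. The highest fold enrichment within 1 kb of a start was 0 for MKI67, 3.92 for CDK1, 5.70 for MCM2, 6.86 for TOP2A and CCNA2, 9.49 for CCNB1 and 21.3 for PCNA, where the peak is the one over CDS2. The median of 6.86 compares with 8.84 over all protein-coding genes with a start. Among genes with a peak at the start the all-gene median was 15.9, and 5 of the 6 proliferation genes lay below it.

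CTCF peaks were found at 8 of the 10 genes (80%, 95% Wilson interval 49.0 to 94.3%), with a background of 75% of protein-coding genes. MKI67 and CCNB1 had none. The highest CTCF signal value per gene had a median of 97.9 over the 10 genes and 125 over all protein-coding genes, and 4 of 10 lay above the latter (background 50%). These values rest on the extensions and on neighbours: without extension, CTCF was at 5 of the 10 genes and the median was 13.1, against 55.4% and 36.9 for all protein-coding genes. With 5 kb, the 10 genes again gave 5 and 13.1, against 68.3% and 90.4. Without peaks over other protein-coding genes they gave the same 5 and 13.1, against 63.9% and 78.3. The scale of the CTCF signal value is not stated, and it was compared only within its list. CTCF lay over a promoter window in 2 of the 7 genes with a start, CCNA2 and PCNA, against 24.6% of protein-coding genes.

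The strongest CTCF peaks were in the D cyclins, at similar places. In CCND1 a peak from 69643251 to 69643757 had a signal value of 291, higher than 94.5% of the list, with its summit 2348 bp inside the end from which the gene is transcribed. In CCND2 a peak from 4276877 to 4277351 had a signal value of 280, at percentile 93.3, with its summit 3356 bp inside the corresponding end. Both overlapped an H3K27ac peak in part. CCND1 also had a CTCF peak of signal value 94.7 at its end, with the summit 24 bp from it, and CCND2 had one of 239 with the summit 2637 bp beyond its far end. The remaining CTCF peaks of these genes were 800 bp wide and had signal values between 15.8 and 54.4. At CCND1, 2 of these, with signal values of 15.8 and 19.6, had q-values above 0.05 (−log10 q of 0.464 and 1.00). Both overlapped H3K27ac and are kept in the counts of CTCF peaks.

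At PCNA the CTCF peaks overlapped H3K27ac peaks of the gene itself and of its neighbours. An interval from 5126339 to 5127082, across the outer PCNA start and the start of CDS2, was listed with 2 summits, 209 bp upstream and 59 bp downstream of the PCNA start, with signal values of 200 and 161. It spans the 226 bp gap between the H3K27ac peaks there, whose facing edges are at 5126570 and 5126797. The CTCF summits, at 5126563 and 5126831, lie just outside the gap, close to those edges. The upstream summit is inside the H3K27ac peak of 21.3 over CDS2, and the downstream summit is inside that of 6.23 in PCNA. Another, of signal value 189, lay within the H3K27ac peak over TMEM230. AURKA had a single CTCF peak of 210 over CSTF1, 8006 bp from its end, and it met no H3K27ac peak.

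Other CTCF peaks were weaker. MCM2 had 1 of signal value 83.1 over TPRA1, CDK1 had 1 of 102 placed 9323 bp before its first start, and TOP2A had 1 of 94.2 located 2381 bp inside its transcribed end. TOP2A also had an 800 bp peak of 42.7. The 2 CTCF peaks at CCNA2 overlapped each other, were 800 bp wide and had signal values of 26.1 and 25.9. Of all listed CTCF peaks, 33.4% had this single width of 800 bp, and 7 of the 18 here did.

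An H3K27ac peak was overlapped by 13 of the 18 CTCF peaks, where the background was 28.1% of all CTCF peaks. That background takes every listed CTCF peak wherever it lies, whereas the 18 all lie within 10 kb of a gene, so the sets are unlike. When the CTCF summit itself had to lie in an H3K27ac peak, the count was 9, and no background was computed on that basis. The 13 were spread over CCNA2 (2), CCND1 (4), CCND2 (3), PCNA (3) and MCM2 (1). Several share a locus or an interval, so they are not independent counts. By width, 5 of the 7 peaks of 800 bp and 8 of the 11 others overlapped H3K27ac.

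**Figure D4:**
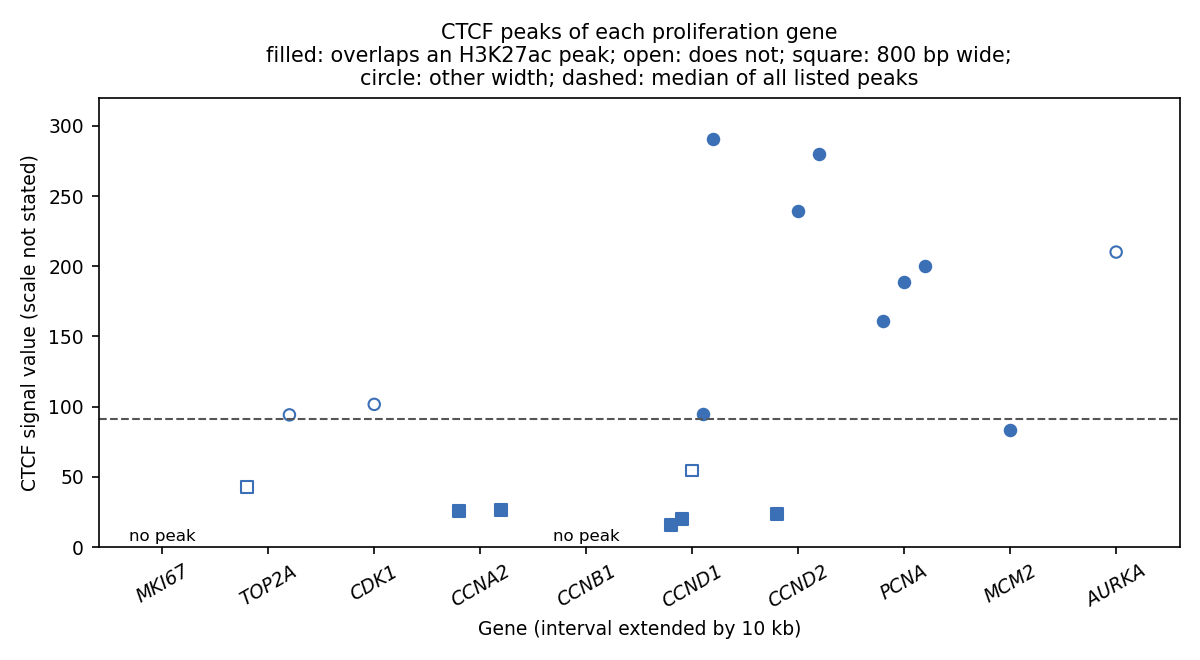
CTCF signal value of each peak assigned to the gene on the x axis; filled symbols overlap an H3K27ac peak, squares are peaks of 800 bp and the dashed line is the list's median of 91.0. The highest points are the CCND1 and CCND2 peaks of 291 and 280, and no square rises above 54.4.

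The wider cell cycle machinery was then described with 5 lists that hold 72 other genes. H3K27ac was present within the extended interval of 71 of them, with a background of 76.9%. E2F8, a repressive E2F factor, was the gene without a peak. Of the 61 with an annotated start, 58 had a peak within 1 kb of it, against 65.9% of protein-coding genes. Their median fold enrichment at the start was 8.56, close to the all-gene median of 8.84, since most had a peak but a modest one. Summits on both sides of a start were found for 39 of the 61, with a background of 32.6%.

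By role, the median fold enrichment at the start was 13.1 for 6 CDK inhibitors and 11.5 for 5 G1/S cyclins and kinases. It was 9.36 for 15 RB, E2F and DREAM/MuvB regulators, 9.24 for 16 replication genes and 7.39 for 19 mitosis genes. Among the inhibitors, all 7 listed genes had a peak (background 76.9%). CDKN1B, which encodes the inhibitor p27, reached 45.4 and CDKN2C, which encodes p18, 19.5. CDK4 and CDK6, the kinases that D cyclins activate, reached 41.3 and 33.3, but the CDK4 peak lay over a neighbouring gene and the highest over CDK4 alone was 11.5. RBBP4, a histone-binding subunit of MuvB, reached 49.1 and E2F4, an E2F factor of DREAM, 41.8. CDC45 (42.3) and RFC4 (44.9) led the replication genes. CDC25C (73.8), a phosphatase that activates CDK1, and TACC3 (46.9), a spindle protein, led the mitosis genes. The peaks that gave the values of CDKN1B, RBBP4, E2F4, CDC45, RFC4, CDC25C and TACC3 also overlapped another protein-coding gene. Every peak assigned to CDKN1B, RBBP4, CDC45 or CDC25C did so, and the highest value in peaks free of other protein-coding genes was 20.6 for RFC4, 7.49 for E2F4 and 7.32 for TACC3.

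Cell type markers gave a scale for these values and a check of the label. All 12 neuron markers had an H3K27ac peak (background 76.9%), with a median highest fold enrichment of 17.4 and the highest value, 47.0, at GAP43, a growth-cone protein. Of these 12, 7 lay above the all-gene median of 12.3 (background 50%). The low ones, named after their values were seen, included SYN1, a synaptic vesicle protein gene, at 5.54 and RBFOX3, which encodes the neuronal marker NeuN, at 5.96 with no peak at its start. All 10 neural progenitor markers had a peak as well, and 9 lay above the all-gene median. Their median was 39.9, with 58.7 at the Notch receptor gene NOTCH1, where peaks over NOTCH1 alone reached 22.4. In peaks over no other protein-coding gene, the medians were 31.7 for progenitor markers and 17.4 for neuron markers. At starts, the medians were 17.0 for 9 neuron markers and 31.7 for 8 progenitor markers, against 6.86 for the 7 proliferation genes. Neuron markers were thus acetylated in these cultures to varying degrees, and the progenitor markers had the higher medians.

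Other lists were lower or mixed, and their counts stand beside a background of 76.9% of all protein-coding genes with a peak. Among astrocyte markers 5 of 6 had a peak (median 17.1, highest 62.8 at GFAP, where the peaks over GFAP alone reached 9.67). That median was close to the 17.4 of the neuron markers only when peaks over neighbouring genes were counted. In peaks over no other protein-coding gene, the medians were 11.96 for astrocyte markers and 17.4 for neuron markers. At starts, they were 7.13 for 4 astrocyte markers and 17.0 for 9 neuron markers. All 6 oligodendrocyte markers had a peak, with a median of 6.03 and 8.74 at CNP, where peaks over CNP alone reached 7.87. Of the pluripotency markers 3 of 8 had a peak, the highest being 12.1 at LIN28A, and of the liver and muscle markers 5 of 10, the highest being 20.4 at MYH7. The share that progenitors or other dividing cells contributed to the acetylation of the proliferation genes was not tested.

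**Figure D5:**
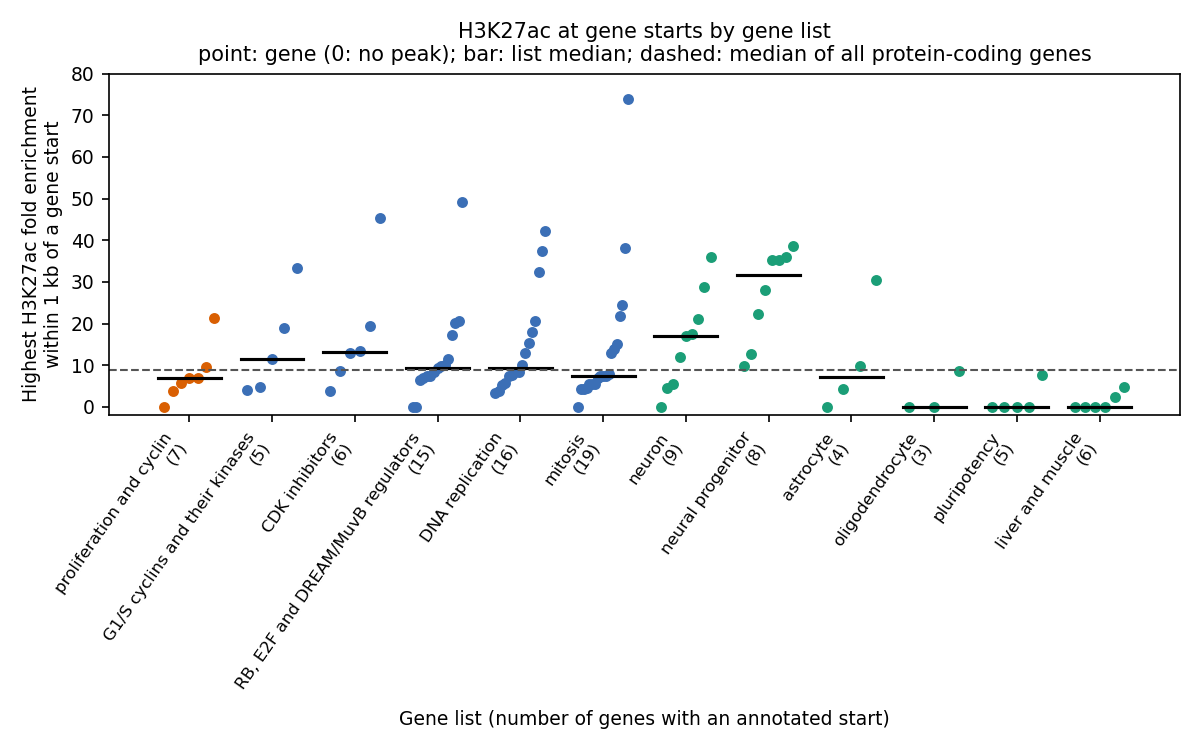
Highest H3K27ac fold enrichment within 1 kb of an annotated start for each gene (points, 0 where no peak was listed) of the lists on the x axis, with black bars at the list medians and a dashed line at the all-gene median of 8.84. The proliferation and cyclin genes (median 6.86) sit close to the mitosis list (7.39) and below the neuron (17.0) and progenitor (31.7) markers.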

How the data were processed

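CTCF and H3K27ac ChIP-seq libraries of KOLF2.1J neurons were examined through the deposited peak lists, 1 for each antibody with its libraries combined. The lists held 0 columns of per-sample values, and the input libraries were not analysed here. Per the submitters' processing notes, cutadapt 1.16 and hg38 were used; the aligner and the peak caller are not given in the sources used here. The authors' H3K27ac signal column was read as a fold enrichment (a ratio) from its values and layout, and the deposited CTCF signal value has no stated scale. The authors' −log10 q values (at most 4.78 for CTCF) and score column (up to 1000) were used for thresholds only or not at all. No read depth could be recovered, so intervals (95% Wilson) cover counting error only.

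Peaks were assigned by at least 1 bp of overlap with RefSeq GRCh38.p14 gene intervals extended by 10 kb, in Python 3.11.15 with pandas 2.3.3, numpy 2.4.6 and scipy 1.17.1. The overlap code was checked on simulated intervals. All 134 genes of the lists were matched, 1 through a synonym. Members and lists were chosen with earlier results of these data known. All 10 members are described in full; of each cell-cycle list the 2 genes with the highest H3K27ac value and any without a peak are named, and of each marker list the highest. Starts are those of RefSeq's promoter table. Positions are 1-based. Alternatives were the extension, list stringency, summit overlap, exclusion of neighbouring genes, merged CTCF entries and removal of 800 bp CTCF peaks.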

Additional observations from a re-analysis of the deposited data

How the results depend on the processing

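No paired analysis was possible because no value of a single replicate is in the lists, and leaving out a replicate was not run for the same reason. Of 76 alternative values of the summaries, 56 stayed within 1.5 times the main count or equal to the main median, and 20 moved. H3K27ac at 9 of 10 genes became 8 in the strongest 50% of peaks, where CDK1 dropped out, and stayed 9 in the other 6 alternatives. Without extension, the median highest H3K27ac value was 6.86 (8.56 over all protein-coding genes), the H3K27ac peaks numbered 27, CTCF was at 5 genes with 11 peaks, and the CTCF median was 13.1. With 5 kb the H3K27ac median was 8.18 (11.03 over all genes), CTCF was at 5 genes and its median was 13.1. With 20 kb the medians were 14.2 (14.3 over all genes) and 142. Without peaks over other protein-coding genes, the H3K27ac median was 6.86, CTCF was at 5 genes and its median was 13.1. The strongest 50% of each list left 29 H3K27ac peaks, 10 CTCF peaks, 5 CTCF peaks that overlap H3K27ac, and summits on both sides of a start at 3 genes. With q under 0.01, 8 CTCF peaks overlapped H3K27ac. Without the 800 bp width, 11 CTCF peaks remained and 8 overlapped H3K27ac. Fewer peaks or shorter windows lower such counts by construction. The alternatives for summits around starts and for values at starts were chosen after seeing the data. Read depth, unknown here, limits what a missing peak shows.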
